A study of Mus musculus with 4 samples.

Results

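Cxcr2 and 3 of its mouse ligand genes, Cxcl1, Cxcl2 and Cxcl5, were followed by RNA sequencing in lung fibroblasts exposed to human chemokines that act on the same receptor. These are 4 of the 2979 genes in the deposited table, taken by gene name as the receptor for the added proteins and its own mouse ligands. The cells came from the lungs of wild-type BALB/c mice aged 4 weeks and were freshly isolated. There were 2 control libraries, and 2 more came from cells kept for 3 hours with 3 recombinant human proteins at once, 8 nM CXCL1, 2 nM CXCL2 and 20 nM CXCL8. The labels give neither how many animals were used nor whether cells were pooled, and nothing says that replicates came from separate cultures, so p-values measure only the spread between these libraries, which may be technical.

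Values are in RPKM, read numbers scaled by the length of the gene and the total of the library. The table is a list that its authors selected: in all 2979 genes the values of the control and chemokine libraries do not overlap (100%), and no fold in the authors' deposited table lies between 0.906 and 1.12. Implied library totals were 28603764 to 36863654 reads. Of 12 fibroblast marker genes 7 are listed, with summed levels of 1807 and 1798 RPKM in control 1 and 2 and 1913 and 1917 RPKM in chemokine 1 and 2. Of these 5 rose and 2 fell, where 42.8% of the 2956 listed genes tested rose and 57.2% fell. The largest rises were in the collagen genes Col3a1 (log2 fold change 0.39) and Col1a1 (0.23). The 2 that fell were the matrix protein fibronectin, Fn1, from 287 and 298 to 199 and 181 RPKM (-0.62) and the growth factor gene Fgf10 (-0.29). With a length and GC trend, described further on, removed, 5 still passed upward and 2 downward. In that version 20.2% of all tested genes passed upward and 20.4% downward. Genes that are not on the list were not analysed here.

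CXCR2 is a G protein-coupled receptor of the cell surface. It binds CXC chemokines that carry a glutamate-leucine-arginine motif near their amino end, signals through inhibitory G proteins to phospholipase C, phosphoinositide 3-kinase and MAP kinases, and is then taken into the cell by arrestins and clathrin. In the mouse it is best known on neutrophils, which follow Cxcl1, Cxcl2 and Cxcl5 into inflamed lung. Fibroblasts, epithelium and macrophages make these ligands, and their genes are classical targets of NF-kB whose messages decay quickly through AU-rich stretches in the 3' untranslated region. Mice have no direct counterpart of human CXCL8.

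The receptor gene was measured in the cells themselves and was higher after exposure. Cxcr2 (ENSMUSG00000026180, protein-coding, chromosome 1, bases 74153989 to 74161246 of GRCm38, plus strand) stood at 6.28 and 6.08 RPKM in control 1 and 2 and at 8.02 and 9.25 RPKM in chemokine 1 and 2. Both chemokine libraries lay above both control libraries, where in all 2979 listed genes the groups do not overlap. The gap between the groups was 1.74 RPKM, against a difference of 1.23 RPKM within the chemokine pair and 0.203 RPKM within the control pair. Its mean level rose to 8.63 ± 0.868 RPKM from 6.18 ± 0.144 RPKM (SD, both n = 2), a ratio of means of 1.40, with 1.28 as the lowest and 1.52 as the highest ratio between single libraries. By limma's moderated test this was 0.42 ± 0.07 (SE) as a log2 fold change (adjusted p = 0.000576). All 4 genes passed this test, as did 100% of the 2956 listed genes that were tested, of which 42.8% were higher and 57.2% lower, so that passing says nothing of these genes beyond their place on the list. In bulk libraries more cells that express a gene and more of its RNA per cell cannot be told apart.

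Cxcr2 was a low gene of this list. It ranked 2243 and 2280 of 2979 by RPKM in control 1 and 2, and 1917 and 1780 in chemokine 1 and 2. Its values rested on 610 and 683 reads in control 1 and 2 and on 699 and 954 reads in chemokine 1 and 2, at a length of 3048 bases that equals all its annotated exons together. Exact 95% Poisson intervals, which cover counting error only, ran from 5.63 to 6.80 RPKM over both control libraries. They ran from 7.43 to 8.63 RPKM in chemokine 1 and from 8.67 to 9.85 RPKM in chemokine 2. The chemokine libraries thus differed from each other by more than their separate counting intervals, while the control libraries did not.

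Markers of other cells that can carry the receptor or make its ligands were looked at beside it. Of 18 neutrophil markers only Itgam, the integrin chain CD11b shared with macrophages, is listed, and it fell, from 12.0 and 11.6 RPKM in the control libraries to 8.80 and 7.80 RPKM in the chemokine libraries. Of 14 endothelial markers 5 are listed and all 5 rose, as did 42.8% of all tested genes. Their summed level was 10.97 and 11.3 RPKM in control 1 and 2 and 17.9 and 18.4 RPKM in chemokine 1 and 2. All 5 are low, and none reaches a mean of 10 RPKM. Sox18, a transcription factor of endothelium, had the largest log2 fold change of these, 0.82, followed by the junction protein Esam (0.57), Plvap of fenestrated endothelium (0.51) and the secreted Egfl7 (0.45). With the length and GC trend described further on removed, 4 of the 5 still passed and Plvap did not (limma adjusted p = 0.0786). In that version 20.2% of all tested genes passed upward. Of 10 smooth muscle and mesothelial markers 4 are listed, 3 rose and 1 fell, with summed levels of 4461 and 4359 RPKM in control 1 and 2 and 5124 and 5226 RPKM in chemokine 1 and 2. The actin-binding Tagln (0.31), calponin Cnn1 (0.19) and smooth muscle actin Acta2 (0.17) rose and the myosin Myh11 fell (-0.34), and none of the 4 passed with the trend removed. Of 18 macrophage and monocyte markers 2 are listed, Ear2 (log2 fold change 0.66) and the mannose receptor Mrc1 (-0.33). Their summed levels of 14.1 to 15.1 RPKM over the 4 libraries thus join opposite changes. With the trend removed Ear2 (0.34) and the neutrophil marker Itgam (-0.35) still passed and Mrc1 (-0.08) did not. Of 15 epithelial markers Krt18 and Sftpb are listed. Krt18, a keratin of simple epithelium, rose (0.42) but did not pass with the trend removed (0.03). Sftpb, a surfactant protein of alveolar cells, was too low to be tested. It stood at 1.18 and 1.24 RPKM in control 1 and 2 and 0.391 and 0.331 RPKM in chemokine 1 and 2. None of 12 lymphocyte markers is listed. The part of these cells in the levels of Cxcr2 and its ligands was not tested.

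The same table showed higher levels of all 3 ligand genes, with Cxcl1 highest, then Cxcl2 and Cxcl5, by size of the fold. Cxcl1 (ENSMUSG00000029380), known in the mouse as KC, stood at 66.0 and 69.7 RPKM in control 1 and 2 and at 98.0 and 93.4 RPKM in chemokine 1 and 2. The lowest chemokine library was 23.7 RPKM above the highest control library, and neither pair differed within itself by more than 4.57 RPKM. Its mean rose to 95.7 ± 3.23 RPKM from 67.9 ± 2.66 RPKM (SD, both n = 2), a ratio of means of 1.41 and a log2 fold change of 0.49 ± 0.05 (SE, limma adjusted p = 0.000189).

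Cxcl2 (ENSMUSG00000058427), known as MIP-2, stood at 8.61 and 8.76 RPKM in control 1 and 2 and at 11.4 and 11.5 RPKM in chemokine 1 and 2. Its libraries agreed more closely within each group than those of the other 3 genes, with a gap of 2.61 RPKM between groups and at most 0.144 RPKM within a pair. Its mean rose to 11.4 ± 0.057 RPKM from 8.69 ± 0.102 RPKM (SD, both n = 2), a ratio of means of 1.31 and a log2 fold change of 0.36 ± 0.05 (SE, limma adjusted p = 0.00033).

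Cxcl5 (ENSMUSG00000029371), known as LIX, stood at 36.7 and 34.1 RPKM in control 1 and 2 and at 41.9 and 43.7 RPKM in chemokine 1 and 2. As in all 2979 listed genes, the groups did not overlap. The gap between them was 5.22 RPKM, against 2.56 RPKM within the control pair and 1.84 RPKM within the chemokine pair. Its mean rose to 42.8 ± 1.3 RPKM from 35.4 ± 1.81 RPKM (SD, both n = 2), a ratio of means of 1.21 and a log2 fold change of 0.27 ± 0.05 (SE, limma adjusted p = 0.00139). The fold of the authors' deposited table was 1.40 for Cxcr2, 1.41 for Cxcl1, 1.32 for Cxcl2 and 1.21 for Cxcl5.

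**Figure D1:**
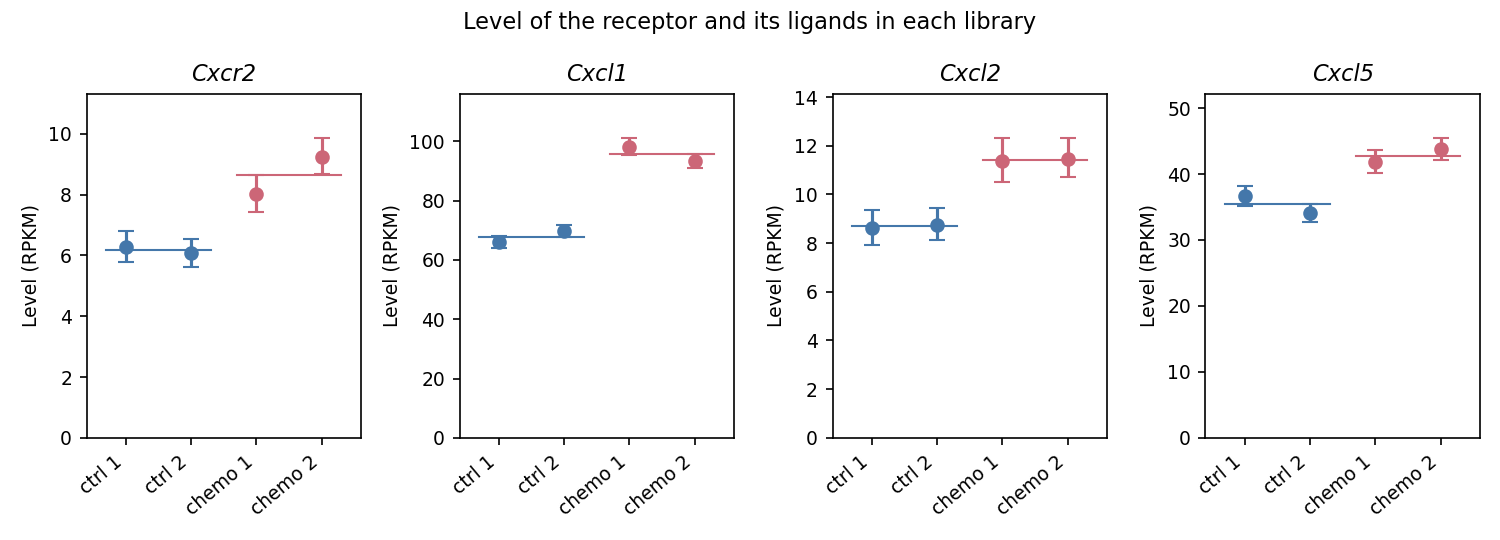
Level in RPKM of each gene in each of the 4 libraries, with points for libraries, bars for exact 95% Poisson intervals of the read numbers and lines for group means (n = 2). Chemokine libraries lie above control libraries in every panel, where in all 2979 listed genes the groups do not overlap. Of the pairs of libraries within a group only the chemokine pair of Cxcr2 (8.02 and 9.25 RPKM) has intervals that do not overlap.

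Cxcl1 was the most abundant of the 4 genes per length in every library and ranked between 361 and 450 of 2979 by RPKM. Cxcl5 followed at ranks 715 to 801, then Cxcl2 at ranks 1633 to 1963 and Cxcr2. In each of the 4 libraries the order was Cxcl1, Cxcl5, Cxcl2, Cxcr2, and no range of a gene over all libraries touched that of Cxcl1 or Cxcl5. The ranges of Cxcl2 and Cxcr2 did overlap, since Cxcr2 in chemokine 2 (9.25 RPKM) lay above both control levels of Cxcl2 (8.61 and 8.76 RPKM), while in chemokine 1 it lay below them. Among the summed RPKM of the 3 ligands Cxcl1 made up 59.3% and 61.9% in control 1 and 2 and 64.8% and 62.9% in chemokine 1 and 2. Cxcl5 made up 33.0% and 30.3% in the controls and 27.7% and 29.4% after exposure, and Cxcl2 between 7.52% and 7.78% in all 4.

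The lengths behind these values reach beyond the spliced messages. The values of each gene are whole read numbers over a fixed length, and for Cxcl1 that length is 1871 bases, equal to an annotated transcript of the class retained intron (ENSMUST00000201245), whereas its spliced protein-coding transcript has 953 bases. For Cxcl2 the length is 2066 bases, again that of a retained-intron transcript (ENSMUST00000200919), against 1109 bases of the shortest coding transcript. For Cxcl5 it is 1863 bases, all exons of the gene together and also a retained-intron transcript, against 1575 coding-transcript bases. Divided by the shortest coding transcript instead, control levels would be 130 and 137 RPKM for Cxcl1, 16.0 and 16.3 for Cxcl2, 43.4 and 40.3 for Cxcl5, and 8.62 and 8.35 for Cxcr2. The order of the genes is the same in every library on either scale, Cxcl1 would make up 68.6% to 73.1% of the ligands' sum, and a fold is not affected because the length cancels. How many reads came from retained intron cannot be read from 1 value per gene. Reads were 3933 and 4810 for Cxcl1, 567 and 667 for Cxcl2 and 2176 and 2342 for Cxcl5 in control 1 and 2, and 5243 and 5916, 672 and 801, and 2232 and 2758 in chemokine 1 and 2.

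The ligand genes are paralogs, but few reads can be shared between them. The coding sequences of Cxcl1 and Cxcl2 are identical at 75.6% of the 303 bases of the longer, while Cxcl5 reaches 49.4% with Cxcl1 and 46.4% with Cxcl2 over its 399 bases. No word of 31 bases is common to the annotated transcripts of any 2 of the 3 ligands. Cxcl2 shares 161 such words, 7.59% of its own, with Cxcl3, a neighbouring gene that was not analysed here, so its reads are less certain than those of Cxcl1 and Cxcl5.

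Whether the 4 genes differed in the size of their change was asked with ratios within a library, which do not depend on how a library was scaled. The RPKM ratio of Cxcl1 over Cxcl5 was 1.80 and 2.05 in control 1 and 2 and 2.34 and 2.14 in chemokine 1 and 2, a log2 difference of 0.22. That of Cxcr2 over Cxcl5 was 0.171 and 0.178 in the controls and 0.191 and 0.211 after exposure, a log2 difference of 0.20. Cxcl1 over Cxcl2 went from 7.66 and 7.96 to 8.62 and 8.16 (log2 difference 0.10), and Cxcl2 over Cxcl5 from 0.235 and 0.257 to 0.271 and 0.262 (0.12). In these 4 ratios the groups did not overlap, and for each the two-sided exact permutation p was 0.333, the smallest that 2 against 2 libraries allow, or 0.5 adjusted over 6 pairs. For Cxcr2 over Cxcl1 and Cxcr2 over Cxcl2 the groups overlapped, with log2 differences of -0.02 (exact p = 1) and 0.08 (exact p = 0.667, adjusted p = 0.8). The exact test could not have called a difference at this number of libraries, whatever its size, so it does not show that the 4 genes responded alike.

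The rise of the 4 genes was read against the list they belong to, in which the change followed gene length. Among 2953 listed genes with a known exon length, Spearman's rho between log2 fold change and exon length was -0.721, a description across genes that share libraries and were selected for a difference. With GC content rho was 0.351, and with mean RPKM it was 0.526. Only length and GC enter the trend that is removed further on, so a relation to the level may remain. Cxcl1, Cxcl2 and Cxcl5 fall in the length class of 1372 to 2084 exon bases, out of 10 classes of about equal size, in which 97.3% of 294 genes were higher after exposure and the median log2 fold change was 0.32. Cxcl1 lay above that median, Cxcl2 near it and Cxcl5 below it. Cxcr2, at 3048 bases, is the shortest of the class that ends at 4457 bases, in which 67.8% of 295 genes were higher with a median of 0.24, and 94.9% were higher in the next shorter class. By fold in the authors' deposited table, Cxcl1 ranked 85, Cxcr2 99, Cxcl2 322 and Cxcl5 888 of 2979, where 1264 genes had a fold above 1.

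**Figure D2:**
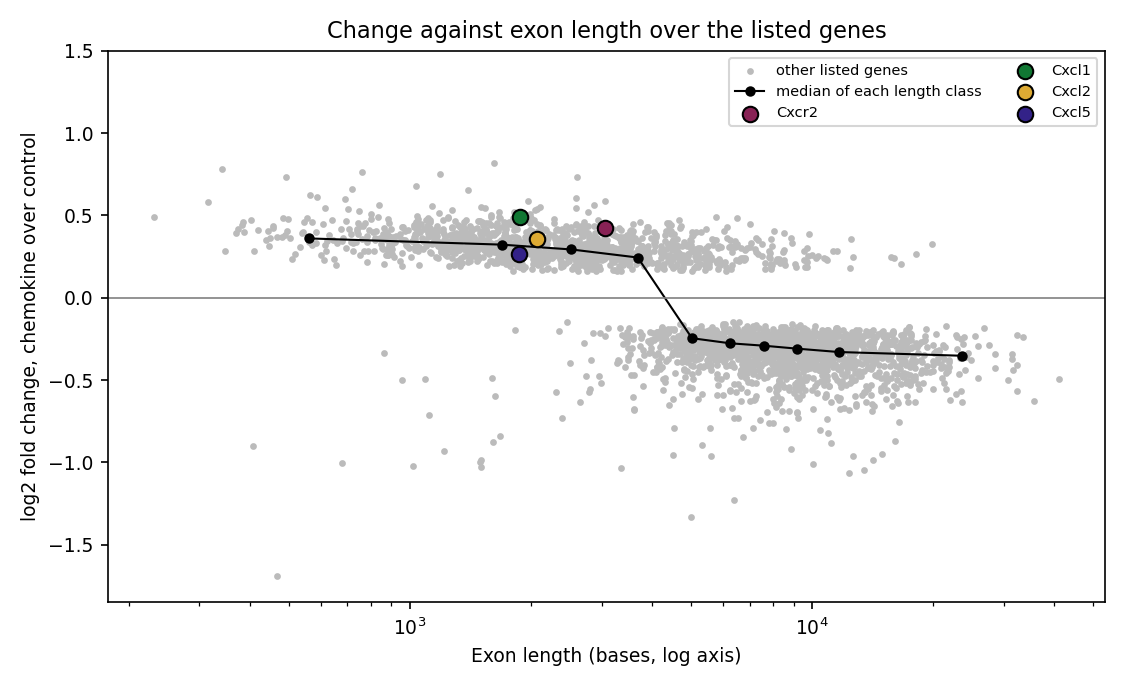
Log2 fold change of chemokine over control against exon length in bases (log axis) for 2953 listed genes, with the 4 genes in colour and the median of each of 10 length classes as a line. Short genes lie mostly above 0 and long genes below it, and Cxcl1 and Cxcr2 lie above the medians of their classes (0.32 and 0.24) while Cxcl5 lies below.

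With this trend of length and GC content taken out of each library, the receptor and Cxcl1 remained higher. Cxcr2 then stood at 0.28 ± 0.05 on the log2 scale (SE, limma adjusted p = 0.00451) and Cxcl1 at 0.19 ± 0.06 (adjusted p = 0.0397). Cxcl2, at 0.082 ± 0.05 (adjusted p = 0.185), and Cxcl5, at 0.050 ± 0.04 (adjusted p = 0.39), did not pass. In that version 40.6% of tested genes passed, 20.2% upward and 20.4% downward. The call for Cxcr2 ended without control 1 (adjusted p = 0.0547) and without control 2 (0.073). The call for Cxcl1 ended without control 1 (0.274), without control 2 (0.118) and without chemokine 1 (0.102). The trend was itself estimated on selected genes, so what is removed may include change as well as trend. Against a fold of at least 1.2, which 3.28% of tested genes passed upward, only Cxcl1 of the 4 passed (limma adjusted p = 0.0158), with Cxcr2 at 0.0999, Cxcl2 at 0.151 and Cxcl5 at 0.663. All SEs and limma p-values, in this paragraph and in all others, rest on listed genes whose groups do not overlap, so they may be too small.

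**Figure D3:**
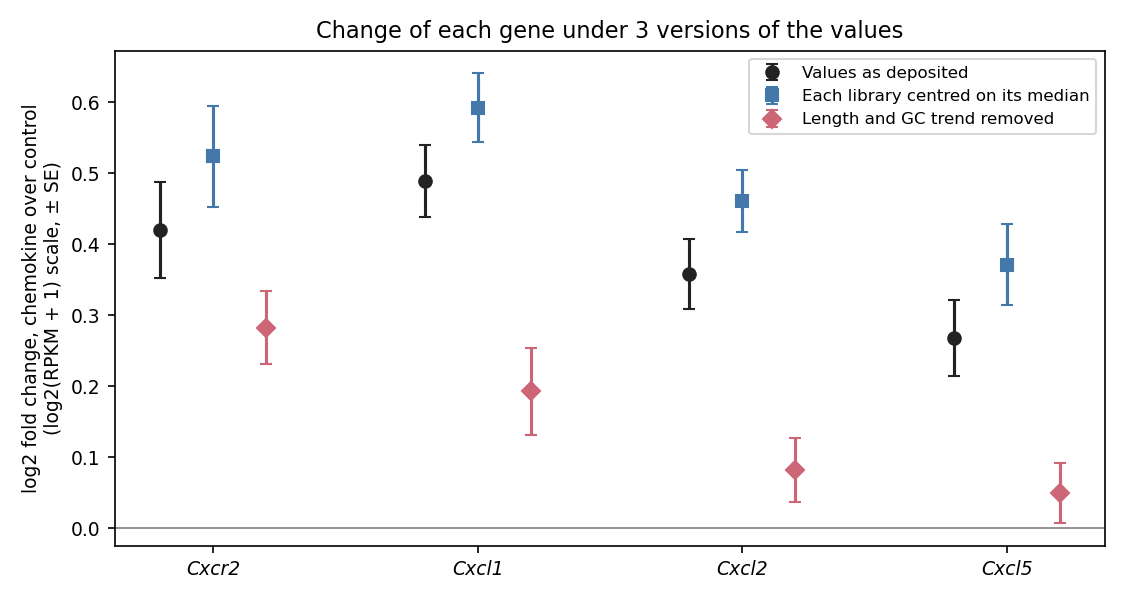
Log2 fold change with its SE for the 4 genes from 2 control and 2 chemokine libraries, from the values as deposited, after centring each library on its median, and after removing the trend of length and GC. Centring moves all 4 upward by 0.10, and removing the trend brings Cxcl2 to 0.082 and Cxcl5 to 0.050.

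Promoter sequences of Cxcr2, Cxcl1 and Cxcl2 were matched by symbol in RefSeq (GRCm38.p6), each from 250 bases before to 50 after the RefSeq start. That start lies downstream of the gene start given elsewhere here, by more in Cxcl2 than in Cxcl1. Distances before the start, and how they differ between the 2 genes, therefore depend on the start used. Those of Cxcl1 and Cxcl2, which both rose and are the most alike of the 3 ligands in coding sequence, are shown 5' to 3' on the plus strand, at chr5:90890995-90891294 and chr5:90903649-90903948. Capitals mark matches to the motifs searched.
Cxcl1: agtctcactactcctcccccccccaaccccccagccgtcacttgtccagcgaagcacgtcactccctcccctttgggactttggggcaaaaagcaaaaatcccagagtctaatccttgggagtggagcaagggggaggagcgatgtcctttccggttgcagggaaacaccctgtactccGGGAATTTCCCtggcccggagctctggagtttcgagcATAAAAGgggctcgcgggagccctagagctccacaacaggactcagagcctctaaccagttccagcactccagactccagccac
Cxcl2: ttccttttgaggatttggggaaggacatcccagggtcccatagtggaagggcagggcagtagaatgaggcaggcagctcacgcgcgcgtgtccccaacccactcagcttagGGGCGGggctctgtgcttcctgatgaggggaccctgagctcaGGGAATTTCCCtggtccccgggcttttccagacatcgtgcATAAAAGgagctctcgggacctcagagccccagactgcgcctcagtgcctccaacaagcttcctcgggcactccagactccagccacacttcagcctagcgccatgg
The motifs, searched on both strands, were the NF-kB consensus, TGANTCA for AP-1, GGGCGG for Sp1, TTGCNNAA for C/EBP and ATAAAAG as a TATA-like box. Both promoters match the NF-kB consensus, from 71 bases before the start in Cxcl1 and from 97 in Cxcl2, each on both strands with the 2 matches overlapping, and 8.46% of 32851 promoters in the table match it. The match stands in the longest run common to both promoters before the start, the 14 bases GGGAATTTCCCTGG, which no other promoter of the table holds. The TATA-like box, in 5.42% of promoters, lies from 34 bases before the start in Cxcl1 and from 57 in Cxcl2, and GGGCGG, in 35.7% of promoters, is found in Cxcl2 from base 139 before the start. TGANTCA and TTGCNNAA, in 7.81% and 10.8% of promoters, are in neither window, and none of the 5 motifs is in that of Cxcr2. Aligned end to end, the 2 ligand promoters are identical at 58.3% of 300 bases, against 55% and 55.3% for Cxcr2 with Cxcl1 and Cxcl2, and after the start they share a run of 20 bases, gcactccagactccagccac.

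Genes that regulate transcription of the ligands moved both ways. Of 29 on the list 10 were tested, 5 rose and 5 fell, with a median log2 fold change of 0.00 against -0.23 over all genes tested, of which 42.8% rose. Cebpb, which encodes a C/EBP factor of inflammatory genes, rose from 117 RPKM in both control libraries to 177.6 and 167.0 RPKM in chemokine 1 and 2 (log2 fold change 0.55 ± 0.05, SE). The AP-1 subunits Jund (0.52) and Junb (0.37) rose as well, while Sp1, a general activator of GC-rich promoters, fell, from 9.21 and 8.86 to 6.22 and 6.0 RPKM (-0.50 ± 0.05, SE). Outside the rule for named genes and chosen after their values were seen, Nfkbia and Nfkbib, inhibitors of NF-kB, also rose (0.30 and 0.33), and Rel, an NF-kB subunit, Fosl2, Cux1 and Parp1 fell (-0.31, -0.35, -0.33 and -0.29). With the length and GC trend removed, Cebpb (0.13) remained higher and Sp1 (-0.21) and Parp1 (-0.17) lower, and the other 7 did not pass. In that version 40.6% of all tested genes passed.

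The 3' untranslated regions of Cxcl1 and Cxcl2 are dense in the pentamer ATTTA, the core of AU-rich decay elements. Cxcl1 has 7 in 592 bases and Cxcl2 11 in 734 bases, which is 11.8 and 15 per kilobase, against a median of 1.39 over 2834 listed genes with such a region. Only 21 and 13 of these genes reach the density of Cxcl1 and of Cxcl2. Cxcl5 has 5 in 1111 bases, or 4.50 per kilobase, a density reached by 240 genes, and Cxcr2 has 2 in 1818 bases. The windows of 30 bases richest in the pentamer, on the message strand with the pentamers in capitals, show how they run into each other.
Cxcl1: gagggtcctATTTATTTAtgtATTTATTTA
Cxcl2: tATTTATTTAtctatgtATTTATTTATTTA
The longer form TTATTTATT, which 9.49% of these genes hold, occurs 2 times in Cxcl1 and 4 times in Cxcl2, and neither in Cxcl5 nor in Cxcr2.

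Of 24 genes that control decay of such messages 8 were tested, 2 rose and 6 fell, with a median log2 fold change of -0.26. Over all genes tested 57.2% fell and the median was -0.23, so these counts are near those of the list. Zfp36, which encodes tristetraprolin, a protein that binds AU-rich elements and hastens decay, and Zc3h12a, the RNA-cleaving regnase-1, were the 2 that rose, by 0.21 each on the log2 scale, and are named after their values were seen. Without control 2 only 1 of the 2 passed. Cnot1, the scaffold of the deadenylase complex, fell from 16.2 and 16.3 to 10.6 and 10.2 RPKM (-0.59 ± 0.05, SE), and the decapping helper Ddx6 (-0.44), the microRNA effector Tnrc6a (-0.42) and the RNA-binding Rc3h1 (-0.28) fell too. With the length and GC trend removed only Cnot1 (-0.23) passed, where 40.6% of all tested genes did.

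**Figure D4:**
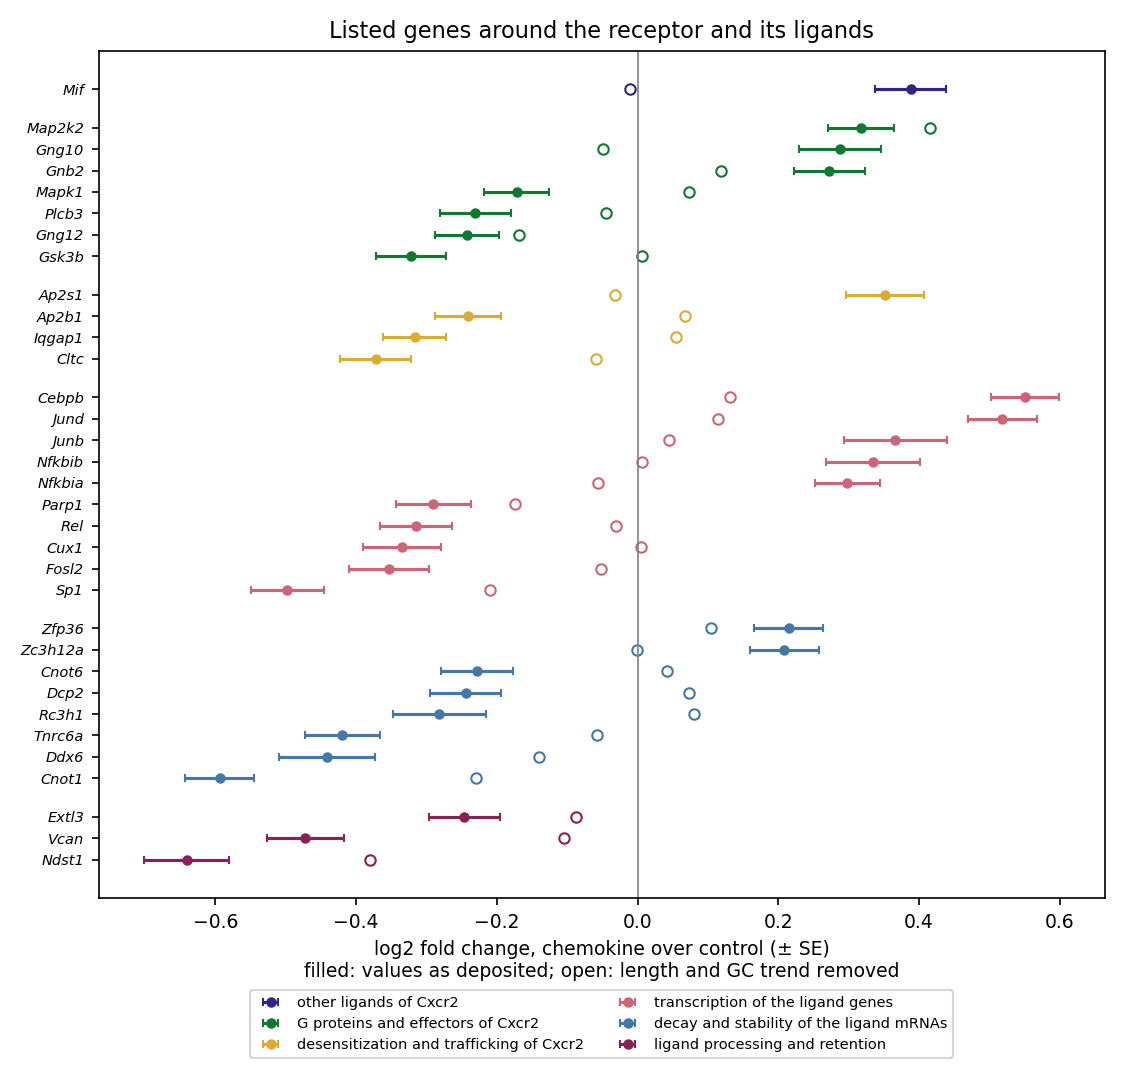
Log2 fold change with SE of the 33 listed genes that surround the receptor and its ligands in 6 lists, from values as deposited (filled) and with the length and GC trend removed (open). Filled points lie on both sides of 0 in 4 of the lists, and most open points lie within 0.1 of 0.

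Other parts of the pathway were thinly represented. Of 4 further ligands only Mif, a cytokine that can bind CXCR2, is listed, and it rose from 1002.8 and 988.9 to 1261.7 and 1347.5 RPKM (log2 fold change 0.39 ± 0.05, SE), but stood at -0.01 with the trend removed (adjusted p = 0.873). None of 4 receptors that share ligands with Cxcr2 (Cxcr1, Ackr1, Ackr3, Cxcr4) was analysed here. Of 43 G proteins and effectors 7 were tested, 3 rose and 4 fell (median log2 fold change -0.17), where 42.8% of all tested genes rose and 57.2% fell. Map2k2, the kinase above ERK, rose from 29.9 and 29.3 to 36.6 and 37.8 RPKM (0.32 ± 0.05, SE), and the G protein subunits Gng10 (0.29) and Gnb2 (0.27) rose, while the kinase Gsk3b fell (-0.32). With the trend removed Map2k2 (0.42) and Gnb2 (0.12) remained higher and Gng12 (-0.17), named after its value was seen, remained lower. In that version 40.6% of all tested genes passed.

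Of 26 genes of receptor desensitization and uptake 4 were tested, 1 rose and 3 fell (median -0.28). Over all genes tested 57.2% fell, with a median of -0.23. Ap2s1, the small subunit of the clathrin adaptor AP-2, rose (0.35), while clathrin heavy chain Cltc (-0.37), the scaffold Iqgap1 (-0.32) and the adaptor subunit Ap2b1 (-0.24) fell. None of these 4 passed with the trend removed, where 40.6% of all tested genes did. Of 24 genes that process or retain the ligands 3 were tested and all fell (median -0.47), as did 57.2% of all tested genes. Ndst1, which sulfates the heparan chains that hold chemokines, fell from 12.4 in both control libraries to 8.05 and 7.18 RPKM (-0.64 ± 0.06, SE), Vcan, the proteoglycan versican, had a log2 fold change of -0.47 and Extl3, of heparan synthesis, -0.25. Only Ndst1 (-0.38) passed with the trend removed, where 20.4% of all tested genes passed downward.

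In the genome the 3 ligands share a cluster. Cxcl5 lies on chromosome 5 from 90759360 to 90761624, Cxcl1 from 90891241 to 90893115 and Cxcl2 from 90903871 to 90905938 of GRCm38, all protein-coding on the plus strand. No exon of the 4 genes overlaps an exon of another annotated gene. The start of Cxcl2 is 12.6 kb from that of Cxcl1, and that of Cxcl5 is 132 kb away. Between them Pf4, platelet factor 4, is also listed, and it rose from 356 and 365 to 406 and 474.6 RPKM (0.28 ± 0.07, SE), which turned to -0.04 without passing when the trend was removed. Pf4 is the single listed gene of 8 platelet markers. Ppbp, Cxcl3 and Cxcl15 in the same cluster were not analysed here. Within 500 kb of Cxcl5, Ankrd17, an ankyrin repeat gene, is the only other listed coding gene, and it fell (-0.63). Around Cxcr2, 3 of 19 coding neighbours within 500 kb are listed. Aamp rose (0.32), while Tns1, which encodes the adhesion protein tensin 1 and starts 29.5 kb away, and Zfp142 fell (-0.54 and -0.33).

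**Figure D5:**
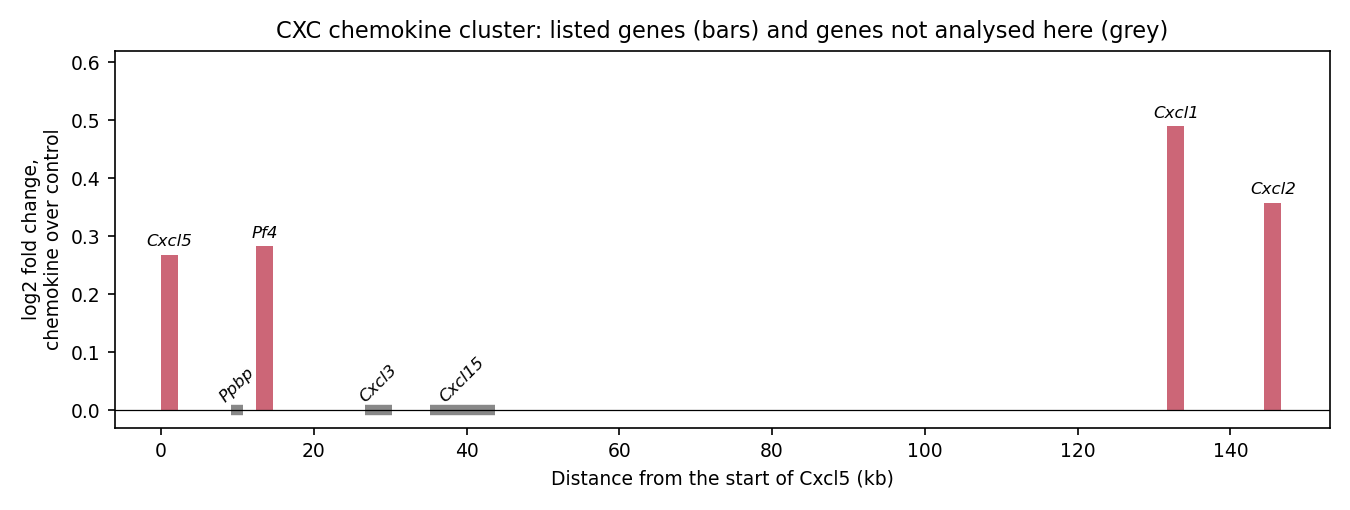
Log2 fold change of chemokine over control (bars) of the 4 listed genes of the CXC cluster, placed by distance in kb from the start of Cxcl5, with genes not analysed here in grey. Cxcl1 and Cxcl2 stand together at the far end with 0.49 and 0.36, and Cxcl5 and Pf4 at the near end with 0.27 and 0.28.

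The listed genes closest in profile to each member were found by Euclidean distance between log2 RPKM values centred on the gene's mean, over 4 libraries. Nearest to Cxcr2 were Pbld2 (distance 0.0135), Fkbp7 (0.0317) and H2afj (0.0342), all with the higher value in chemokine 2. Nearest to Cxcl1 were Mfrp (0.0227), Uqcr11 (0.0251) and Pcbd2 (0.0317), all higher in chemokine 1 than in chemokine 2 as Cxcl1 was. Nearest to Cxcl2 were Rbm8a (0.0104), Rpl18 (0.0172) and Snrpf (0.0184), and nearest to Cxcl5 were Limd2 (0.0152), Mmp3 (0.0201) and H2afy (0.0206). No member was among the 3 nearest genes of another.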

How the data were processed

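The submitters' processing notes name TopHat2 2.0.7 and DESeq2 among the authors' tools and GRCm38 (mm10) as build, without saying what each did. The deposited values are RPKM, a unit worked out from the values, and the deposited fold is a linear ratio made by the authors. The sources used here do not give the annotation, the counter, the strand setting or how genes were selected. Without the strand setting, reads of antisense genes cannot be told apart.

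Library totals were recovered as the whole numbers that make the RPKM values of many genes whole read numbers at their GENCODE M21 exon length, and the reads of the 4 members fit to a relative error under 1e-12. At that length 1177 to 1181 of 2976 genes gave whole read numbers. For the others, Cxcl1 and Cxcl2 among them, the authors' length may differ from the exon length that the length classes and the trend use. The totals came to 31859688 (control 1), 36863654 (control 2), 28603764 (chemokine 1) and 33854493 reads (chemokine 2).

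The test was limma 3.58.1 (R 4.3.3) on log2(RPKM + 1), with a mean-variance trend, for genes averaging 1 RPKM or more over the 4 libraries, two-sided, Benjamini-Hochberg adjusted over all 2956 tested genes, threshold 0.05. Fold changes on this scale understate those of low genes. The fit was tested on simulated data without a length trend and without selection of genes, so that test cannot vouch for the p-values given here. Exon length and GC came from GENCODE M21 for 2976 of 2979 genes, and their trend was removed with splines of 4 degrees of freedom each. Within-library ratios used exact permutation tests in scipy 1.17.1. Alternatives are given at the end. Named genes are the 4 members, up to 4 passing genes of each list by size of change, the 3 nearest profiles of each member and listed coding genes within 500 kb. The members, lists and tests were chosen with earlier results of these data known.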

Additional observations from a re-analysis of the deposited data

How the results depend on the processing

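All 4 genes kept their direction in every alternative run. They passed the test with a pseudocount of 0.1 or none, no filter, no mean-variance trend and centring. Every listed gene tested also passed with either pseudocount, no filter or no mean-variance trend. Passing there thus says nothing of these 4 genes beyond their place on the list. With centring 1264 of 2956 tested genes passed upward and 1526 downward. Fits without 1 library assume that the lone library of a group varies like the others. Log2 fold changes without 1 library ranged from 0.33 to 0.51 for Cxcr2, 0.45 to 0.53 for Cxcl1, 0.35 to 0.37 for Cxcl2 and 0.22 to 0.32 for Cxcl5. With the length and GC trend removed, an alternative that lowered them because short listed genes were mostly higher, Cxcl2 (0.082) and Cxcl5 (0.050) no longer passed, and without 1 library the values ranged from 0.22 to 0.35 for Cxcr2, 0.11 to 0.28 for Cxcl1, 0.040 to 0.12 for Cxcl2 and 0.0063 to 0.094 for Cxcl5. These leave-outs and the test against a fold of 1.2 were added after seeing the data. In the latter Cxcr2 (0.42), Cxcl2 (0.36) and Cxcl5 (0.27) did not pass, and listed genes passing were 97 higher and 310 lower. The counts over all tested genes, 1264 higher and 1692 lower, became 596 and 603 with the trend removed, and 1098 higher and 691 lower at a mean of at least 10 RPKM, where fewer genes are tested and Cxcr2 has no value. Centring shifted all log2 fold changes by 0.10. Without 1 library, the within-library log2 ratio of Cxcr2 over Cxcl1 ranged from -0.15 to 0.12 and of Cxcr2 over Cxcl2 from -0.013 to 0.18, changing sign. The other 4 ratios kept their sign.

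The libraries share replicate numbers but nothing says that the numbers pair them, and deviations from the group means of same-numbered libraries correlated at -0.156. With the replicate block 1264 genes were higher and 1692 lower, the same as with the crossed block, added after seeing the data, and the 4 genes still passed. With block and trend removal, 593 were higher and 587 lower, with Cxcl2 at 0.082 and Cxcl5 at 0.050, and among the pathway genes named with the trend removed only Gnb2 lost its call (adjusted p = 0.0677).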
